A study of Mus musculus with 24 samples.

Results

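The DNA replication machinery was followed here as 46 genes that license replication origins, start the replicative helicase, copy the 2 strands, join the new fragments and protect the fork. The genes were chosen by name with earlier results of these data known, so their counts against all genes are a description. Of the 46 genes, 45 had an array probe set that named 1 gene, among 17097 such genes in all. Chaf1a, a subunit of chromatin assembly factor 1, was not analysed here. Where a gene had several probe sets, the one brightest on average across the 24 arrays was used, and the others served as a check. Values are log2 intensities from Affymetrix HT MG-430 PM arrays, on which a difference of 1 is a 2-fold difference.

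Naive CD4 T cells were sorted from mouse spleen and peripheral lymph nodes as CD4+, CD62Lhi, CD44lo and CD25- cells. The Raptor-deficient groups came from CD4(cre)Raptor(fl/fl) mice, in which the Cd4 promoter drives Cre recombinase and Cre removes a floxed part of the Raptor gene in T cells. The wild-type groups came from mice labelled WT, strain C57BL/6. Cells of both genotypes were left unstimulated (0 h), or were stimulated for 8 h or 24 h with plate-bound antibodies to CD3 and CD28, which engage the T cell receptor and its costimulatory receptor. Each of the 6 groups held 4 samples. The labels give no age, and nothing in them states that a group's replicates are separate mice. The p-values therefore cover the variation among these 24 samples only, which could in part be technical.

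Raptor is the defining subunit of mTORC1, a kinase complex that couples growth signals to protein synthesis and metabolism. A resting T cell does not replicate its DNA. After activation it grows, passes from G1 into S phase and then divides. Before S phase the origin recognition complex, Cdc6 and Cdt1 load rings of Mcm2 to Mcm7 onto origins, which is called licensing. Kinases then add Cdc45 and the GINS complex to these rings, and the resulting helicase unwinds DNA for the polymerases. Many of these genes are known targets of E2F factors, which drive transcription at the G1 to S transition.

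The arrays had similar overall levels, with medians between 5.15 and 5.29, and samples of a group correlated with r of at least 0.978 across genes. The CD4 T cell markers were bright in every group, with 0 of 8 group means under 5.51, the median of the gene table. Unstimulated Raptor-deficient replicate 1 had the largest spread around its group mean, with a residual SD of 0.280, followed by replicates 2 and 3 of that group with 0.222 and 0.206. The other 21 samples lay between 0.119 and 0.172. Replicate 1 of both 24 h groups held liver gene signal, with list means of 7.10 in the Raptor-deficient and 6.93 in the wild-type sample. Rptor itself was 5.92 to 7.37 in unstimulated Raptor-deficient samples, against 7.04 to 7.49 in wild type (not called, adjusted p = 0.0750). It was lower in Raptor-deficient cells by -1.01 at 8 h (adjusted p = 0.000292) and by -0.64 at 24 h (adjusted p = 0.0109). The files do not place its probes against the deleted part.

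By 24 h, nearly the whole replication set had risen in wild-type cells, and it rose much less in Raptor-deficient cells. Relative to unstimulated wild type, the median of the 45 genes in each sample lay between 0.63 and 0.96 in Raptor-deficient cells at 24 h, against 2.05 to 2.12 in wild-type cells at 24 h. The 2 ranges are far apart. At 8 h the same sample medians were -0.18 to -0.07 in Raptor-deficient cells, against 0.00 to 0.10 in wild type. Unstimulated samples lay between -0.12 and 0.16 in Raptor-deficient cells and between -0.03 and 0.05 in wild type. In bulk RNA, fewer cells in S phase and less of each RNA per cell cannot be told apart.

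**Figure D1:**
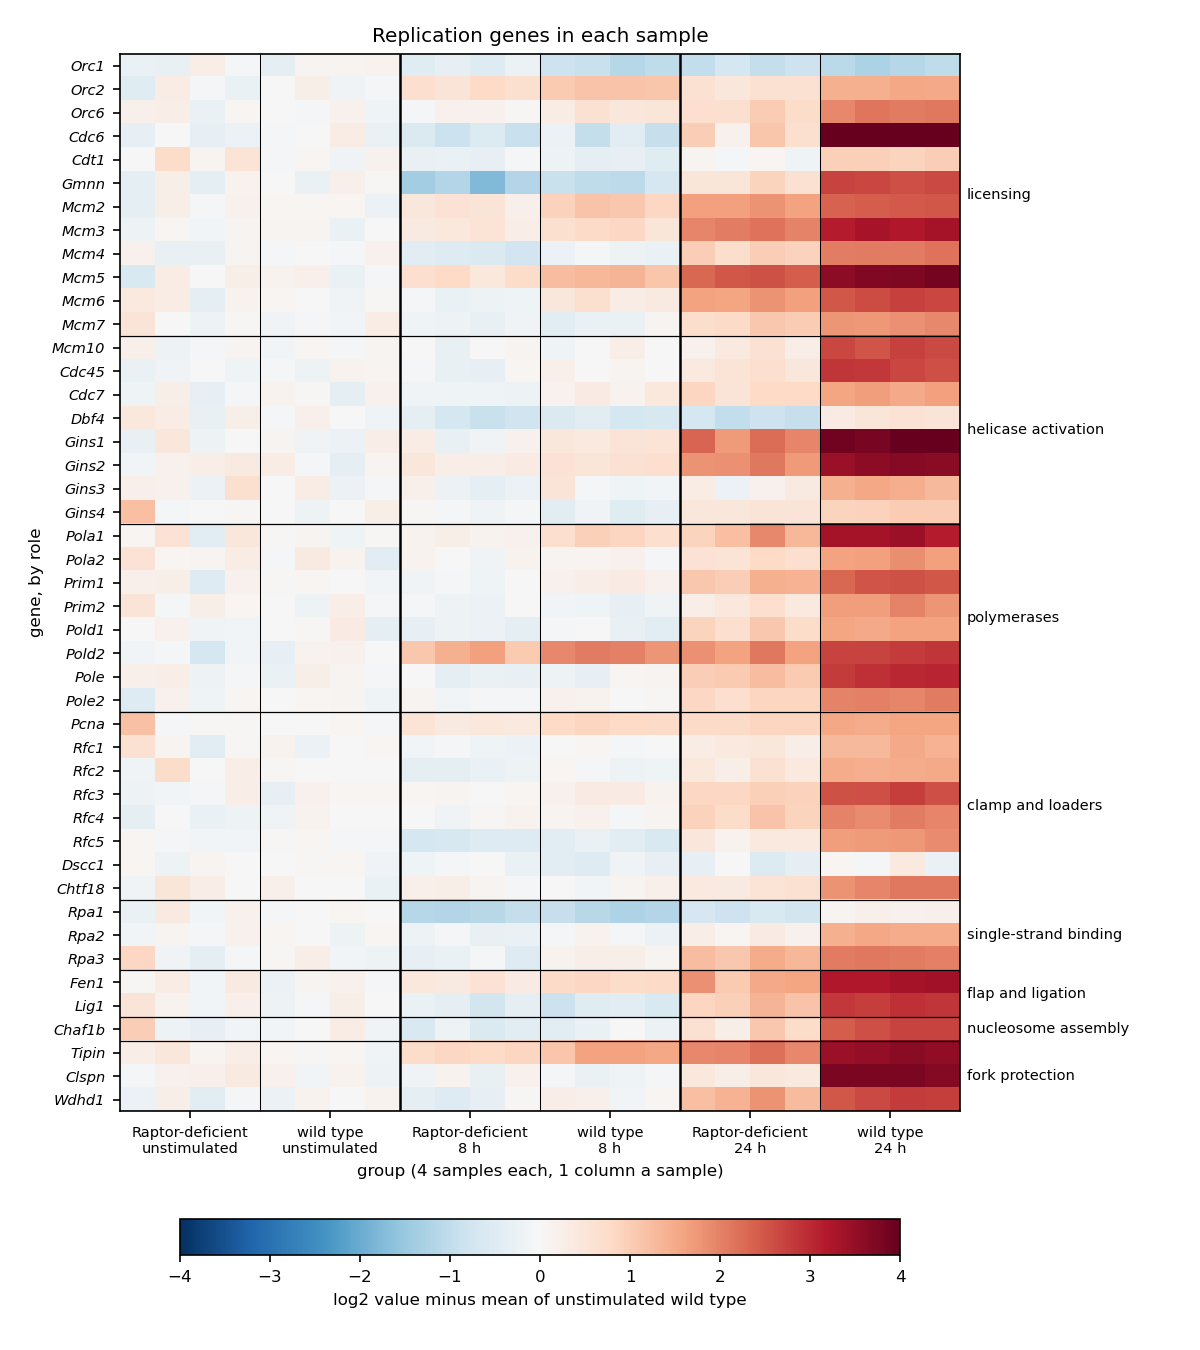
Heat map of the 45 measured replication genes (rows, ordered by role) in the 24 samples (columns, 4 for each of 6 groups). Colour gives the log2 value minus the mean of unstimulated wild type, with the scale ending at 4, and the wild-type 24 h columns are the reddest block, with sample medians of 2.05 to 2.12 against 0.63 to 0.96 in Raptor-deficient cells.

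Because the genes moved together, their promoters are described next. RefSeq promoter windows of assembly GRCm38.p6, reaching from 250 bases before to 50 bases after the start site, were matched for 36 of the 46 genes. An E2F type match was one of TTTGGCGC, TTTCCCGC, TTTGCCGC or TTTCGCGC on either strand. It was found in 14 of these 36 genes (38.9%), against 2.6% of 27025 genes with a window and 3.79% of the 13605 such genes on the array. The CCAAT box bound by NF-Y was found on either strand in 23 of 36 (63.9%), against 41.1% of all genes and 42.3% of array genes. GGGCGG, bound by Sp factors, was found in 27 (75%), against 38.2% of all genes and 57.3% of array genes. TTTGAA, a cell cycle homology region, was found in 7 (19.4%), which lies between the 20.2% of all genes and the 15.7% of array genes. Matches are letters only, and the windows hold no measure of binding.

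Stretches around the E2F type matches are shown for 5 genes of the licensing and clamp groups, on the gene's own strand, with the matched letters in capitals. In Mcm5 and Mcm6, matches on opposite strands overlap.
Cdc6, chr11:98907988-98908045, plus strand: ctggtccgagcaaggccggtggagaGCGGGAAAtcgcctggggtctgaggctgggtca
Orc1, chr4:108579402-108579459, plus strand: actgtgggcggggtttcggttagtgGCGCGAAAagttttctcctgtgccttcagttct
Rfc3, chr5:151651179-151651243, minus strand: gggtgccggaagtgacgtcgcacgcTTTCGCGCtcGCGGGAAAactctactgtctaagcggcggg
Mcm6, chr1:128359720-128359840, minus strand: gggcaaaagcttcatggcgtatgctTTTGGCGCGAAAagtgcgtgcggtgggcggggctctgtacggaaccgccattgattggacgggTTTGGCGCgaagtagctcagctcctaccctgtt
Mcm5, chr8:75109331-75109392, plus strand: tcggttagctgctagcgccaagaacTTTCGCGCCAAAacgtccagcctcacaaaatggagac
The 14 measured genes with a match rose by a median of 2.62 in wild-type cells at 24 h, and the 21 with a window but no match by 1.998. Their median differences between Raptor-deficient and wild-type cells at 24 h were both -1.24. Cdc6 and Orc1 both hold a match, yet Cdc6 rose and Orc1 fell on the probe set used for it.

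In wild-type cells at 24 h, 42 of 45 genes were higher than in unstimulated cells and 1 was lower (limma, Benjamini-Hochberg adjusted p under 0.05 over all genes). Of all genes, 25.4% were higher and 24.3% lower in that comparison. A change of at least 2-fold was reached by 39 genes upward and 1 downward, against 16.4% of all genes in either direction. The median change was 2.07, and the largest was Cdc6 at 4.14. The unstimulated means of 11 genes in each genotype lay under 5.51, the median of the gene table. Folds may understate the change of the RNA at low intensities, and no detection limit was available.

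In Raptor-deficient cells at 24 h, 33 genes were higher than in unstimulated cells and 4 lower, with a median change of 0.80. The background was 21.6% higher and 17.5% lower, and 9.94% at 2-fold or more in either direction. Rises of at least 2-fold were seen for 15 genes and a fall of that size for 1. The 4 that fell were Orc1, Cdt1, Dbf4 and Rpa1. Cdt1 and Dbf4 had risen in wild type. In Raptor-deficient cells Cdt1 was 8.77 to 9.54 unstimulated and 8.62 to 8.90 at 24 h, so its samples overlapped. The call of its fall was not followed under the alternatives. Another 7 genes that rose in wild type were not called in Raptor-deficient cells, namely Gins3, Gins4, Prim2, Rfc1, Rfc2, Rpa2 and Clspn. Without unstimulated Raptor-deficient replicate 1, Gins4 was called higher (0.50, adjusted p = 9.93e-05), as it was with array weights (0.36, adjusted p = 0.0268). With the mean of all probe sets, Rpa2 (0.31, adjusted p = 0.00597) and Clspn (0.30, adjusted p = 0.00686) were called higher.

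Between genotypes at 24 h, 44 of 45 genes (97.8%) were lower in Raptor-deficient cells, and 0 were higher. Of all genes, 13.1% were lower and 8.35% higher. The median difference was -1.25, from -3.41 to 0.26, and 31 genes were at least 2-fold lower, against 2.38% of all genes at 2-fold in either direction. All 4 Raptor-deficient samples lay below all 4 wild-type samples for 43 genes, which was so for 16.5% of all genes. The exceptions were Orc1 and Dscc1. The response from 0 h to 24 h itself differed between genotypes, with 43 of 45 genes lower in Raptor-deficient cells and 0 higher, against 8.01% and 5.26% of all genes. That difference reached 2-fold for 34 genes, against 2.61% of all genes.

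At 24 h the B cell list lay at 5.65 to 6.43 in Raptor-deficient samples, against 5.06 to 5.42 in wild type, with 3 of 6 measured genes called higher and 0 lower. Of those 6 genes, 2 group means in Raptor-deficient and 4 in wild-type cells were under 5.51. The NK cell list had 2 of 5 genes higher, with list means of 5.02 to 5.37 in Raptor-deficient and 4.84 to 4.97 in wild-type samples. The CD4 T cell list had 1 of 8 genes called lower and lay at 10.48 to 10.59 in Raptor-deficient and 10.49 to 10.61 in wild-type samples. Whether these differences in the B and NK cell lists have a part in the replication result was not tested. Leaving out replicate 1 of both 24 h groups, the samples with liver genes, left 42 of 45 genes lower.

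**Figure D2:**
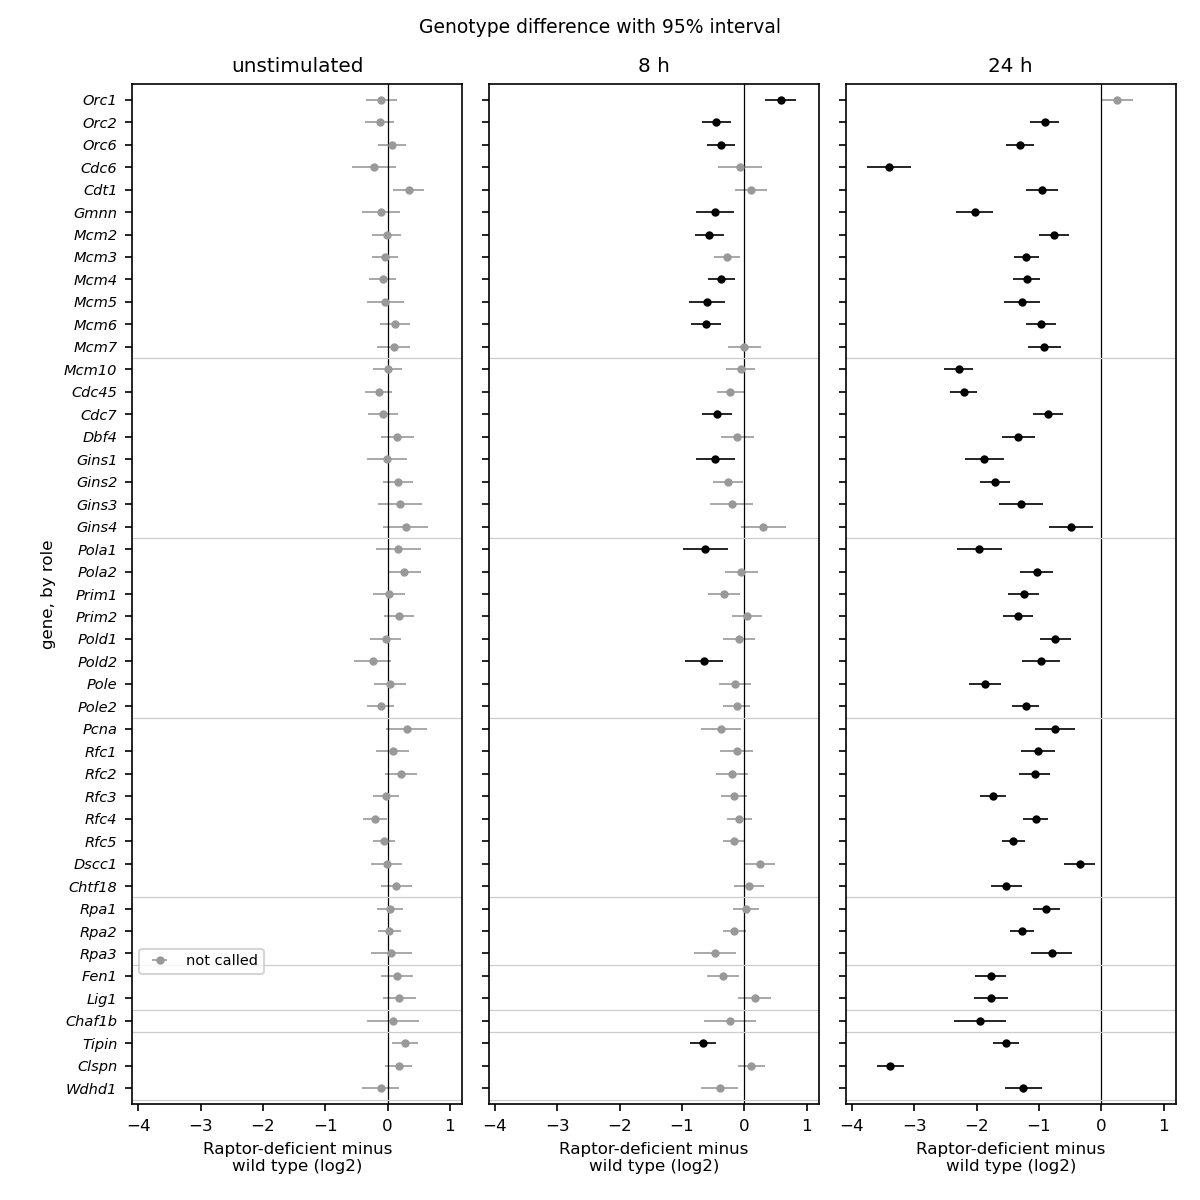
Difference between Raptor-deficient and wild-type cells (log2, horizontal axis) for each gene (rows, by role) in unstimulated cells, at 8 h and at 24 h, with the 95% interval of the limma fit. Black points passed an adjusted p of 0.05, and at 24 h all but Orc1 did, with 31 of them at or beyond -1.

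Among the licensing genes, the genotype difference at 24 h was largest for Cdc6. Cdc6, the loader that recruits the Mcm ring to the origin recognition complex, had 6.08, 5.26, 6.20 and 5.74 in Raptor-deficient cells at 24 h, against 9.07, 9.18, 9.42 and 9.24 in wild type. Every wild-type sample lay far above every Raptor-deficient one. The difference was -3.41 ± 0.17 (SE, n = 4 each; 10.6-fold lower, adjusted p = 2.63e-14). In unstimulated cells Cdc6 averaged 4.86 ± 0.17 in Raptor-deficient and 5.09 ± 0.23 in wild-type samples (SD, n = 4 each), so it rose in both genotypes.

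Gmnn, which encodes geminin, the inhibitor of Cdt1, averaged 6.61 ± 0.19 in Raptor-deficient and 8.65 ± 0.06 in wild-type cells at 24 h, 4.09-fold lower. Cdt1, which loads the ring together with Cdc6, was 8.62 to 8.90 in Raptor-deficient samples, against 9.68 to 9.77 in wild type, 1.93-fold lower. Among the origin recognition subunits, Orc6 was 2.47-fold and Orc2 1.87-fold lower. In all, 11 of 12 licensing genes were lower at 24 h, 6 of them by at least 2-fold.

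The genotype differences of the Mcm2 to Mcm7 ring subunits formed a narrow band at 24 h. They lay between -1.27 and -0.76, and all 6 genes were called lower. Their rises from rest in wild-type cells were wider apart, from 1.82 to 3.70. Mcm5 had 8.54, 8.74, 8.78 and 8.66 in Raptor-deficient cells at 24 h, against 9.82, 9.94, 9.98 and 10.06 in wild type. Mcm6 had 8.94, 8.89, 9.11 and 8.97 in Raptor-deficient cells, against 9.80, 9.94, 10.06 and 9.99 in wild type. The samples did not overlap for either gene. Mcm5 was 2.41-fold lower (adjusted p = 1.57e-07) and Mcm6 1.96-fold lower (adjusted p = 5.31e-07), yet both had risen strongly from rest in Raptor-deficient cells, by 2.47 and 1.54.

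Among the 8 genes of helicase activation, all were lower at 24 h and 6 by at least 2-fold. Mcm10, which helps the loaded helicase to start unwinding, had 4.99, 5.22, 5.45 and 5.08 in Raptor-deficient cells at 24 h, against 7.51, 7.35, 7.56 and 7.48 in wild type. The Raptor-deficient samples stayed near the unstimulated level of 4.84 ± 0.19 in that genotype. The genotype difference was -2.29 ± 0.11 (SE; 4.89-fold lower, adjusted p = 2.01e-14). The Raptor-deficient mean is under 5.51, so this fold may understate the change. The rise of Mcm10 in Raptor-deficient cells was 0.35 (adjusted p = 0.0141), and it was not called without unstimulated Raptor-deficient replicate 2 (adjusted p = 0.0645) or without 24 h Raptor-deficient replicate 3 (adjusted p = 0.0807). It was also lost with only the groups compared (adjusted p = 0.0579), and was 0.20 (adjusted p = 0.259) without unstimulated Raptor-deficient replicates 2 and 3.

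Cdc45, the helicase cofactor, was 4.62-fold lower in Raptor-deficient cells at 24 h, at 5.15 ± 0.12 against 7.36 ± 0.14 in wild type (SD, n = 4 each). Of the GINS subunits, Gins1 was 3.67-fold, Gins2 3.27-fold and Gins3 2.44-fold lower. The Raptor-deficient means of Cdc45 and Gins3 are under 5.51, so their folds may be understated. Gins4 had 8.38, 8.37, 8.44 and 8.44 in Raptor-deficient cells at 24 h, against 8.81, 8.85, 8.96 and 8.96 in wild type. Its samples did not overlap, but its difference of -0.48 was the smallest of this role (adjusted p = 0.0471). Its unstimulated Raptor-deficient replicate 1 read 9.14, against 7.84 to 7.97 in the other 3 replicates. Gins4 was no longer called (adjusted p 0.0509 to 0.105) without any 1 of the 8 samples at 24 h, of the 4 Raptor-deficient samples at 8 h, of wild-type 8 h replicates 1, 3 and 4, or of unstimulated wild-type replicates 1 and 3.

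Cdc7 and Dbf4 form the kinase that fires licensed origins. Cdc7 was 1.81-fold lower in Raptor-deficient cells at 24 h. Dbf4, its activating subunit, had 6.64, 6.34, 6.50 and 6.42 in Raptor-deficient cells at 24 h, against 7.64, 7.81, 7.92 and 7.84 in wild type, 2.51-fold lower (adjusted p = 1.23e-08). In Raptor-deficient cells Dbf4 fell by 1.01 between 0 h and 24 h, while wild-type cells gained 0.47. A dimmer probe set of Dbf4 was lower at 24 h than at rest in both genotypes, by -0.79 in Raptor-deficient and -0.42 in wild-type cells, and it was 0.53 log2 units lower in Raptor-deficient than in wild-type cells at 24 h (-0.53, adjusted p = 0.00546 over all probe sets). The direction of Dbf4 in wild-type cells at 24 h therefore depends on the probe set, and that of its genotype difference does not.

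The polymerase genes were lower in all 8 cases, 6 of them by at least 2-fold. Pola1, the catalytic subunit of polymerase alpha, which lays down primers together with primase, had 4.49, 4.80, 5.54 and 4.94 in Raptor-deficient cells at 24 h, against 6.93, 6.91, 7.02 and 6.73 in wild type. It was 3.88-fold lower (adjusted p = 2.98e-09), and replicate 3 was the highest of the Raptor-deficient samples. Their mean is under 5.51, so the fold may be understated. Pole, the catalytic subunit of the leading-strand polymerase epsilon, was 3.64-fold lower, at 5.92 ± 0.11 against 7.79 ± 0.11 in wild type (SD, n = 4 each).

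Pold1, the catalytic subunit of the lagging-strand polymerase delta, differed least in this role. It had 6.76, 6.54, 6.93 and 6.59 in Raptor-deficient cells at 24 h, against 7.45, 7.37, 7.48 and 7.46 in wild type, 1.66-fold lower (adjusted p = 5.30e-05). The samples again did not overlap. Its partner subunit Pold2 had 7.45, 7.26, 7.75 and 7.25 in Raptor-deficient cells, against 8.32, 8.35, 8.42 and 8.49 in wild type, 1.96-fold lower. The primase genes Prim1 and Prim2 were 2.37-fold and 2.53-fold lower.

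The clamp and its loaders keep polymerases on the template. Pcna, the sliding clamp, was among the brightest genes of the set and differed by -0.74, at 10.96 ± 0.06 in Raptor-deficient and 11.70 ± 0.04 in wild-type cells at 24 h (SD, n = 4 each; adjusted p = 0.000930). Rfc3, a loader subunit, had 6.20, 6.19, 6.33 and 6.31 in Raptor-deficient cells at 24 h, against 7.93, 7.95, 8.14 and 7.95 in wild type, 3.33-fold lower (adjusted p = 5.25e-13). The other loader genes Rfc1, Rfc2, Rfc4 and Rfc5 were between 2.02-fold and 2.66-fold lower, and Chtf18, of the alternative loader used in cohesion, 2.87-fold.

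Dscc1, a partner of Chtf18, was dim, with every group mean under 5.51. It had 3.83, 4.14, 3.59 and 3.76 in Raptor-deficient cells at 24 h, against 4.23, 4.06, 4.52 and 3.89 in wild type, and the samples overlapped. Its difference of -0.35 passed narrowly (adjusted p = 0.0447). Dscc1 was no longer called (adjusted p 0.0508 to 0.223) without any 1 of unstimulated wild-type replicates 1 and 2, Raptor-deficient 8 h replicates 1 and 2, wild-type 8 h replicate 4, Raptor-deficient 24 h replicates 1, 3 and 4, or wild-type 24 h replicates 1 and 3.

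Replication protein A coats single-stranded DNA at the fork, and its 3 subunit genes behaved differently from each other. Rpa2 had 8.50, 8.33, 8.57 and 8.42 in Raptor-deficient cells at 24 h, against 9.67, 9.78, 9.72 and 9.73 in wild type, 2.41-fold lower (adjusted p = 3.36e-11). Rpa3 had 8.56, 8.43, 8.81 and 8.65 in Raptor-deficient cells, against 9.42, 9.46, 9.43 and 9.34 in wild type, 1.74-fold lower (adjusted p = 0.000617). Neither gene's samples overlapped.

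Rpa1, the large subunit, was already high at rest, at 10.74 ± 0.29 in Raptor-deficient and 10.70 ± 0.05 in wild-type cells (SD, n = 4 each). It fell in both genotypes by 8 h, by 1.13 in Raptor-deficient and 1.11 in wild-type cells. At 24 h it had 10.03, 9.89, 10.08 and 9.97 in Raptor-deficient cells, against 10.80, 10.90, 10.87 and 10.90 in wild type. Against rest, the change at 24 h was -0.75 in Raptor-deficient cells (adjusted p = 9.53e-07) and 0.17 in wild-type cells, which was not called (95% interval -0.04 to 0.38). With the mean of all probe sets the wild-type change was 0.33 and was called (adjusted p = 0.00222).

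Fen1 removes the RNA-primed flap of lagging-strand fragments and Lig1 seals the nick. Fen1 had 5.85, 5.10, 5.56 and 5.61 in Raptor-deficient cells at 24 h, against 7.24, 7.23, 7.35 and 7.39 in wild type, 3.42-fold lower (adjusted p = 2.14e-11). Lig1 had 7.59, 7.67, 8.09 and 7.89 in Raptor-deficient cells, against 9.57, 9.50, 9.64 and 9.60 in wild type, 3.41-fold lower (adjusted p = 6.24e-11). Both genes separated the genotypes without overlap.

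Chaf1b, which deposits histones behind the fork, had 6.65, 6.28, 7.14 and 6.80 in Raptor-deficient cells at 24 h, against 8.47, 8.63, 8.77 and 8.77 in wild type, 3.86-fold lower (adjusted p = 3.88e-08). Its rise in Raptor-deficient cells was 0.58 (adjusted p = 0.0233) from an unstimulated group in which replicate 1 read 7.05 and the others 5.72 to 5.93. That rise was not called, with adjusted p between 0.0548 and 0.112, without any 1 of unstimulated Raptor-deficient replicates 2, 3 and 4 or Raptor-deficient 24 h replicates 3 and 4. It was also lost with the mean of all probe sets (0.24, adjusted p = 0.113), with only the groups compared (adjusted p = 0.133) and without unstimulated Raptor-deficient replicates 2 and 3 (0.23, adjusted p = 0.480).

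Of the fork protection genes, Clspn stood closest to no rise at all in Raptor-deficient cells. Claspin, its product, carries the checkpoint signal from a stalled fork. Clspn had 4.91, 4.72, 4.93 and 4.87 in Raptor-deficient cells at 24 h, against 8.25, 8.27, 8.27 and 8.17 in wild type. The wild-type samples lay close together and far above the others. The difference was -3.38 ± 0.11 (SE, n = 4 each; 10.4-fold lower, adjusted p = 2.07e-18). In unstimulated cells Clspn averaged 4.67 ± 0.16 in Raptor-deficient and 4.49 ± 0.17 in wild-type samples (SD, n = 4 each), so the rise was 0.19 in Raptor-deficient cells (not called) and 3.75 in wild type. All these low values are under 5.51, so the folds may be understated.

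Tipin, the partner of Timeless in the fork protection complex, had 8.19, 8.21, 8.46 and 8.17 in Raptor-deficient cells at 24 h, against 9.72, 9.76, 9.87 and 9.79 in wild type, 2.88-fold lower (adjusted p = 6.62e-12). Wdhd1, which tethers polymerase alpha to the helicase, had 6.93, 7.12, 7.52 and 6.99 in Raptor-deficient cells, against 8.20, 8.37, 8.52 and 8.49 in wild type, 2.38-fold lower (adjusted p = 2.61e-07). Neither gene's samples overlapped.

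**Figure D3:**
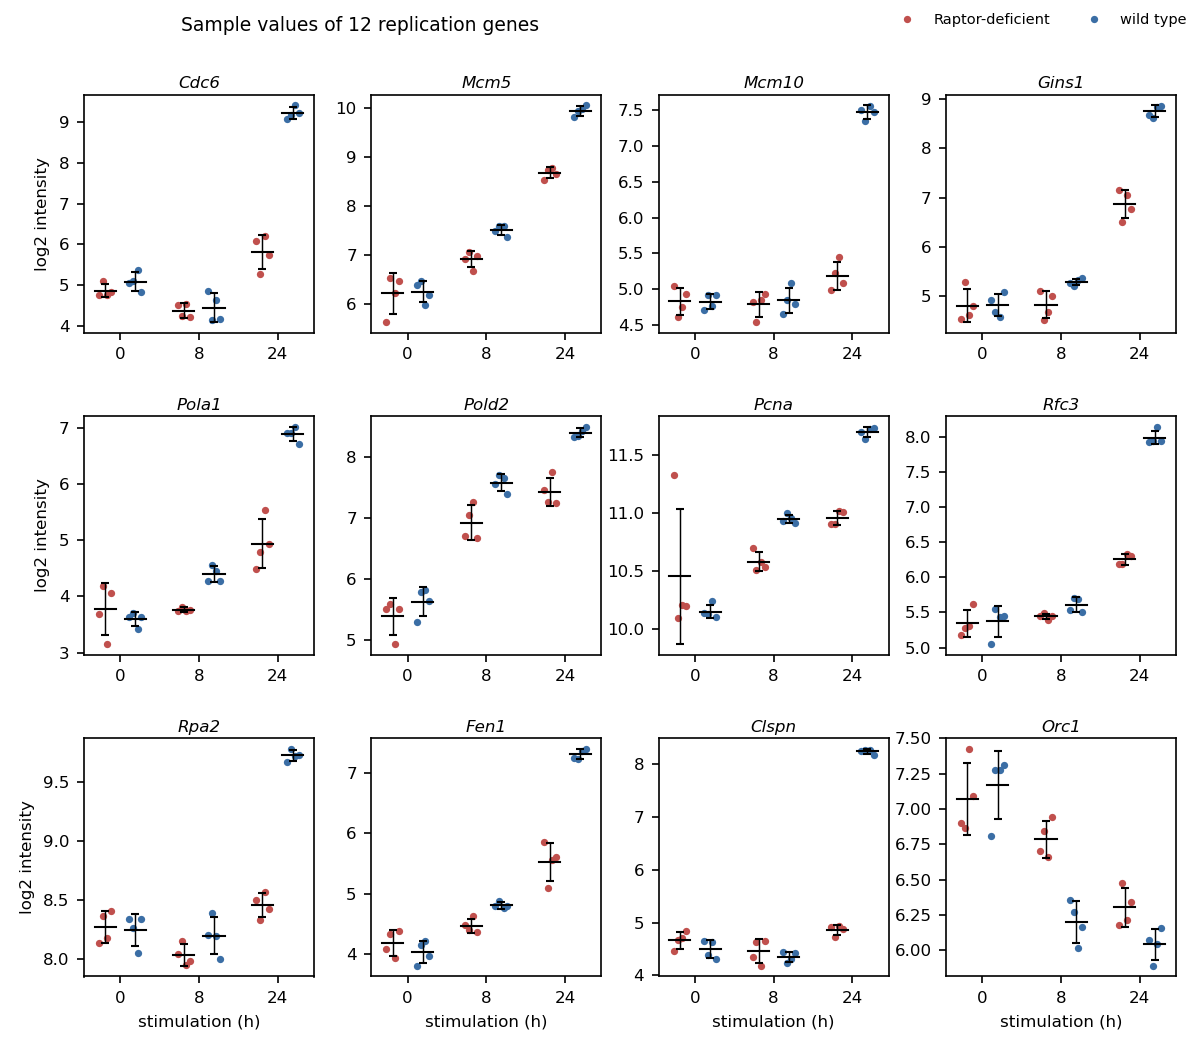
Log2 intensity (vertical axis) of 12 replication genes in each sample at 0, 8 and 24 h of stimulation, with Raptor-deficient samples in red to the left of wild-type samples in blue. Horizontal bars are means and error bars are SDs (n = 4). Clspn at 24 h lies between 4.72 and 4.93 in Raptor-deficient samples and between 8.17 and 8.27 in wild type, while Pcna in unstimulated Raptor-deficient replicate 1 lies at 11.33.

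Orc1, the ATPase of the origin recognition complex, was the 1 gene of the 45 not called between genotypes at 24 h. Its brighter probe set, used here, had 6.18, 6.48, 6.22 and 6.34 in Raptor-deficient cells at 24 h, against 6.08, 5.89, 6.05 and 6.16 in wild type, a difference of 0.26 (adjusted p = 0.141) although the samples did not overlap. It was called higher with only the groups compared (adjusted p = 0.0461) and with array weights (adjusted p = 0.0357). From 0 h to 24 h it fell by 0.77 in Raptor-deficient cells and by 1.13 in wild type. The dimmer probe set, with a mean of 5.10 against 6.60 for the brighter one, gave the opposite picture. On it Orc1 rose by 2.14 in wild-type cells at 24 h (adjusted p = 3.57e-14 over all probe sets) and by 0.29 in Raptor-deficient cells (adjusted p = 0.0546), and the genotype difference at 24 h was -1.80 (adjusted p = 8.90e-12). Which probe set reports the Orc1 mRNA was not tested. For the 29 other probe sets of the set, 26 had the sign of the one used at 24 h between genotypes, 22 were called the same way and 0 the opposite way.

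How much of the wild-type rise was kept in Raptor-deficient cells varied widely between genes. For the 39 genes that rose by at least 1 in wild-type cells at 24 h, the log2 change in Raptor-deficient cells was a median of 35.4% of that in wild type, from -3.81% for Gins3 to 73.7% for Pold2. It was under 25% for 13 genes and at least 50% for 11. Over all 1914 genes that rose by at least 1 in wild type, the median was 71.0%. Both sets were kept by the same wild-type change that the share divides by, which favours low shares. The rule left out Orc1, Cdt1, Dbf4, Gins4, Dscc1 and Rpa1. All 6 Mcm ring genes kept between 44.1% and 69.3%, with a median of 61.4%. Clspn kept 5.07 ± 2.49% (SD over 4 Raptor-deficient samples), Rpa2 12.4 ± 6.80%, Mcm10 13.2 ± 7.55% and Cdc6 23.0 ± 10.1%. At the other end, Mcm2 kept 69.3 ± 3.36% and Pold2 73.7 ± 8.57%. These SDs vary only the Raptor-deficient samples at 24 h, so they leave out the spread of the unstimulated and wild-type groups. Clspn and Mcm10 were under 5.51 at rest in both genotypes and at 24 h in Raptor-deficient cells, and Cdc6 was under it at rest. Small rises may be compressed at low intensities, and the part of this in the low shares was not tested. Differences in the share between genes are a description, also untested.

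Within complexes the shares could also be far apart. Gins1 kept 52.5%, Gins2 47.5% and Gins3 -3.81 ± 18.5%. Prim1 kept 48.7% and Prim2 14.1%, Rfc4 57.1% and Rfc2 13.3%, and Rpa3 58.5% and Rpa2 12.4%. Each share rests on 1 probe set per gene, and shares from other probe sets were not computed. With the mean of all probe sets, the Raptor-deficient rise of Rpa2 was 0.31, against 0.18 on the one used. Gins1 was under 5.51 at rest in both genotypes. Gins3 was under it at rest in wild type and at 24 h in Raptor-deficient cells. Leaving unstimulated Raptor-deficient replicate 1 out of the baseline gave a median of 38.7%, with 10 genes under 25% and 14 at or over 50%. It moved 4 genes by more than 10 points, Pcna to 51.4% from 32.6%, Rfc1 to 32.8% from 20.2%, Rpa3 to 70.7% from 58.5% and Chaf1b to 33.8% from 22.2%.

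**Figure D4:**
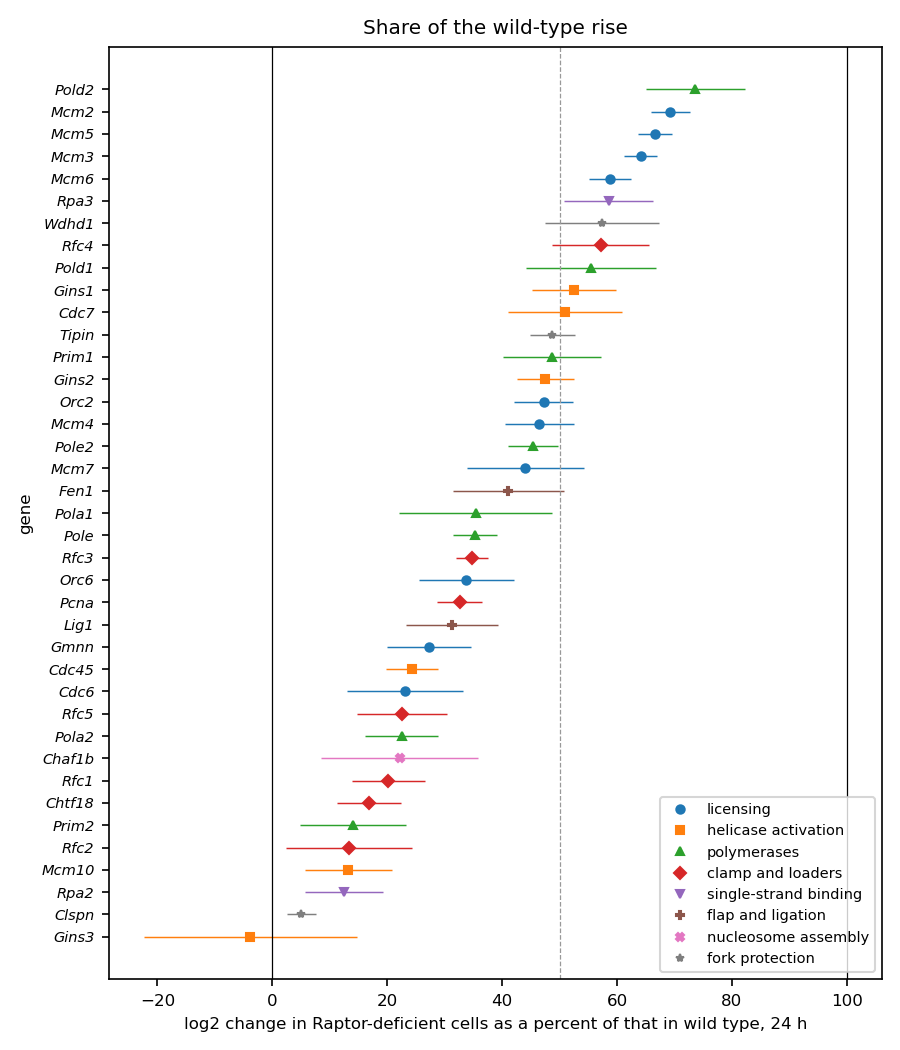
Log2 change after 24 h in Raptor-deficient cells as a percent of that in wild-type cells (horizontal axis) for the 39 genes that rose by at least 1 in wild type (rows, ranked). Points are group means, coloured by role, and bars are SDs over the 4 Raptor-deficient samples at 24 h, without the spread of the other groups. All genes lie below the wild-type change, from -3.81% for Gins3 to 73.7% for Pold2. Keeping genes by their wild-type rise favours this.

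**Figure D5:**
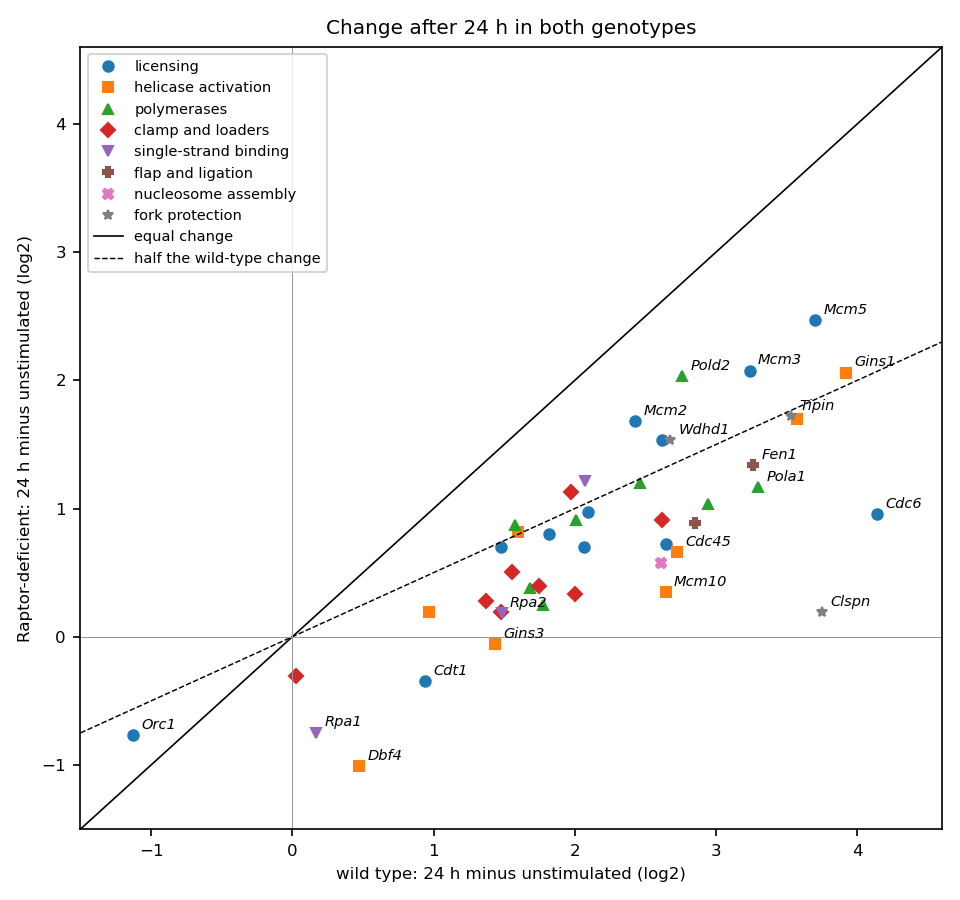
Change from unstimulated to 24 h in Raptor-deficient cells (vertical axis, log2) against that in wild-type cells (horizontal axis, log2), 1 point for each of the 45 genes, with symbols for roles. The solid line marks equal change and the dashed line 50% of the wild-type change. Cdc6 (0.95 against 4.14) and Clspn (0.19 against 3.75) lie far below both lines, and Mcm5 (2.47 against 3.70) lies between them.

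At 8 h the set was mixed, in both genotypes. In Raptor-deficient cells, 6 of 45 genes (13.3%) were higher than at 0 h and 12 (26.7%) lower, against 16% and 16.8% of all genes. In wild-type cells 13 genes (28.9%) were higher and 9 (20.0%) lower, against 18.9% and 20.8% of all genes, so the shares were close to the background on the lower side. Changes of at least 2-fold were called for 3 genes in Raptor-deficient and 5 in wild-type cells, against 6.7% and 10.7% of all genes. Pold2 rose most in both, by 1.53 in Raptor-deficient and 1.95 in wild-type cells. The genes called higher in Raptor-deficient cells were Orc2, Mcm2, Mcm3, Mcm5, Pold2 and Tipin.

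Among the wild-type courses, 13 genes were higher at 8 h and at 24 h, 23 were not called at 8 h and higher at 24 h, and 6 were lower at 8 h and then higher at 24 h. Those 6 were Cdc6, Cdt1, Gmnn, Dbf4, Rfc5 and Lig1. Of all genes in wild type, 18.9% were higher and 20.8% lower at 8 h, and 25.4% were higher at 24 h. The share of all genes with each course was not computed, so the counts by course are a description. Gmnn had wild-type means of 6.00 ± 0.21, 5.09 ± 0.17 and 8.65 ± 0.06 at 0, 8 and 24 h (SD, n = 4 each). Its Raptor-deficient means were 5.89 ± 0.34, 4.62 ± 0.28 and 6.61 ± 0.19 at the same times.

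Most of the rise fell between 8 h and 24 h. In Raptor-deficient cells 38 genes were higher at 24 h than at 8 h and 1 lower, against 15.2% and 7.81% of all genes, with a median change of 0.92. In wild-type cells 44 were higher and 0 lower, against 17.4% and 11% of all genes, with a median of 1.95. Rises of at least 2-fold numbered 20 in Raptor-deficient and 40 in wild-type cells, against 2.46% and 4.29% of all genes. The change from 8 h to 24 h was smaller in Raptor-deficient than in wild-type cells for 35 genes, and larger for 0, against 3.2% and 1.33% of all genes. It differed by at least 2-fold for 21 genes, against 1.58% of all genes.

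Between genotypes at 8 h, 12 genes (26.7%) were lower and 1 higher in Raptor-deficient cells, against 8.77% and 4.14% of all genes. The 12 were Orc2, Orc6, Gmnn, Mcm2, Mcm4, Mcm5, Mcm6, Cdc7, Gins1, Pola1, Pold2 and Tipin, and the 1 higher was Orc1. None reached 2-fold, as 0.468% of all genes did. All 4 Raptor-deficient samples lay below all 4 wild-type samples for 19 genes, against 12.5% of all genes. Licensing genes made up 7 of the 12, and 4 of these were Mcm ring genes. None of the 8 clamp and loader genes was called. Marker lists also differed at 8 h. The CD4 T cell list had 3 of 8 genes lower and 0 higher, with list means of 9.79 to 9.95 in Raptor-deficient and 10.17 to 10.29 in wild-type samples, which did not overlap. The myeloid list had 2 of 6 genes higher, at 4.47 to 4.73 in Raptor-deficient and 4.11 to 4.22 in wild-type samples. The B cell list had 1 of 6 higher, at 5.51 to 6.11 in Raptor-deficient and 5.19 to 5.34 in wild-type samples. Of the myeloid group means, 4 of 6 in Raptor-deficient and 5 of 6 in wild-type cells were under 5.51, and of the B cell group means 3 of 6 in Raptor-deficient and 4 of 6 in wild-type cells were. The regulatory T cell list had 1 of 4 genes higher and 1 lower. The part of these lists in the 8 h differences was not tested.

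Tipin had 6.98, 7.08, 7.06 and 7.10 in Raptor-deficient cells at 8 h, against 7.38, 7.86, 7.86 and 7.80 in wild type, 1.59-fold lower (adjusted p = 4.22e-05). Pold2 had 6.71, 7.06, 7.26 and 6.68 in Raptor-deficient cells, against 7.56, 7.70, 7.66 and 7.39 in wild type, 1.57-fold lower (adjusted p = 0.00298). Both genes had already risen in both genotypes by then, and neither overlapped between genotypes. Mcm6 had 7.24, 7.07, 7.14 and 7.15 in Raptor-deficient cells at 8 h, against 7.78, 7.97, 7.61 and 7.67 in wild type, 1.53-fold lower (adjusted p = 0.000637). Mcm5 had 6.92, 7.06, 6.67 and 6.98 in Raptor-deficient cells, against 7.50, 7.58, 7.60 and 7.36 in wild type, 1.52-fold lower (adjusted p = 0.00434). These ring genes did not overlap either.

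Pola1 had 3.75, 3.82, 3.74 and 3.76 in Raptor-deficient cells at 8 h, against 4.28, 4.57, 4.46 and 4.28 in wild type, 1.55-fold lower (adjusted p = 0.0158). All these values are under 5.51, and the call was lost without wild-type 8 h replicate 2 (adjusted p = 0.0586). Orc1, on its brighter probe set, had 6.70, 6.85, 6.66 and 6.94 in Raptor-deficient cells, against 6.36, 6.27, 6.02 and 6.17 in wild type, a difference of 0.58 (adjusted p = 0.00143), and its dimmer probe set was not called (0.26, adjusted p = 0.182). The response from 0 h to 8 h differed between genotypes for Tipin, Mcm6, Mcm2 and Orc1. Tipin and Mcm2 rose less in Raptor-deficient cells. Mcm6 changed by -0.29 in Raptor-deficient and 0.43 in wild-type cells, and Orc1 by -0.29 and -0.97. The Raptor-deficient changes of Mcm6 and Orc1 were not called. In this test 3 genes were lower and 1 higher in Raptor-deficient cells, against 4.36% and 1.94% of all genes. Of these, 0 reached 2-fold, against 0.491% of all genes. That count was 8 without unstimulated Raptor-deficient replicate 1 and 9 without replicate 3 of that group.

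In unstimulated cells no replication gene was called between genotypes by limma, with 0 higher and 0 lower, against 0.702% and 1.24% of all genes and 0.117% at 2-fold. Without adjustment, 3 genes were higher and 1 lower at p under 0.05. The share of all genes without adjustment was not computed, so this count is a description. The smallest adjusted p was 0.171, for Tipin. The differences ran from -0.24 for Pold2 to 0.34 for Cdt1, with a median of 0.04. Cdt1 had 8.77, 9.54, 8.89 and 9.33 in Raptor-deficient and 8.70, 8.88, 8.64 and 8.95 in wild-type samples, which overlapped, and it was called without Raptor-deficient replicate 1. The spread of the Raptor-deficient group was wide for several genes. Pcna read 11.33 in its replicate 1 and 10.09 to 10.20 in the other 3, against 10.10 to 10.24 in wild type. Marker lists differed at rest too. The CD4 T cell list had 2 of 8 genes lower, at 9.80 to 9.86 in Raptor-deficient and 9.89 to 9.97 in wild-type samples. The NK cell list had 1 of 5 lower, at 5.26 to 5.31 against 5.65 to 5.72. The myeloid list had 1 of 6 higher, and the regulatory T cell list 1 of 4 higher and 1 lower. Their part in the unstimulated values was not tested.

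Beyond the set, 61 further genes of replication control were listed from general knowledge, also with earlier results of these data known. Of the 61, 53 were measured. In Raptor-deficient cells at 24 h, 31 of these were lower than in wild type and 0 higher, 14 of them by at least 2-fold, with a median difference of -0.41. The shares of all genes were 13.1% lower, 8.35% higher and 2.38% at 2-fold in either direction. The 3 largest differences were in Esco2, a cohesin acetyltransferase of S phase (-3.92), Exo1, an exonuclease of replication and repair (-2.69), and Asf1b, a histone chaperone (-2.19). Esco2 averaged 2.33 ± 0.22 in Raptor-deficient and 6.25 ± 0.25 in wild-type cells at 24 h (SD, n = 4 each). All 7 lagging-strand and topology genes and all 3 histone supply genes were lower, as were 4 of 5 firing genes and 4 of 5 further polymerase and loader subunits. The counts were 3 of 6 for licensing control by degradation, 4 of 9 for fork and checkpoint, 2 of 4 for cohesion, 3 of 9 for repair and translesion polymerases and 1 of 5 for origin and licensing. Differences between these subgroups were not tested. From 0 h to 24 h, 27 of the 53 rose and 13 fell in Raptor-deficient cells, against 21.6% and 17.5% of all genes. In wild-type cells 36 rose and 6 fell, against 25.4% and 24.3% of all genes.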

How the data were processed

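RNA from sorted naive CD4 T cells (20 ng each) was amplified with a NuGEN kit and hybridised to Affymetrix HT MG-430 PM arrays, per the labels' protocols. The deposited values are log2 intensities that the authors made with RMA and Partek 6.5, per the submitters' processing notes, which do not give their settings. RMA commonly brings arrays to 1 shared distribution, so a change of total RNA per cell is not measured.

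Of 45141 probe sets, 28898 were annotated to 1 gene and 551 to more than 1, while 15692 had no entry in the annotation used. Symbols were updated through Entrez IDs (GRCm38.p6) for 28689. The brightest probe set per gene gave 17097 genes, 7180 of which had several. A model with 6 group means over all 24 samples was fitted in limma 3.58.1 (R 4.3.3), and p-values were Benjamini-Hochberg adjusted over the 17097 genes separately for the 12 comparisons. Genes count as called where that adjusted p lies under 0.05. The fit was tested on simulated data. The number of arrays limits the precision.

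The genes, lists and rules were chosen with earlier results of these data known. Values in every sample are given for the genes with the largest and smallest 24 h genotype difference in each role, the 5 largest called at 8 h, those not higher in wild type at 24 h, and those with opposed probe sets. The unstimulated Cdt1 and Pcna values were picked after seeing them. The 53 related genes were treated likewise, naming the 3 largest differences. The B cell, NK cell, CD8 T cell, regulatory T cell, myeloid, erythroid, liver and CD4 T cell lists served as purity checks. Of these, 0 of 2 CD8 T cell, 0 of 2 erythroid and 0 of 6 liver genes were called between genotypes at 24 h, 1 of 6 myeloid genes was higher, and 2 of 4 regulatory T cell genes were higher and 1 lower. All 4 regulatory T cell genes rose by 24 h in both genotypes, so that list cannot check purity at 24 h. Alternatives changed the probe set rule, dim-gene filter, scaling, weights, prior, samples in the fit, block and fold rule.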

Additional observations from a re-analysis of the deposited data

Results flagged for a closer look

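Single samples stood far from the other 3 of their group in 9 of 126 sample groups examined (21 genes in 6 groups each), and chance alone flags about 1 in 20. Unstimulated Raptor-deficient replicate 1 was high for Gins4 (9.14) and Chaf1b (7.05), and replicate 3 of that group was low for Pold2 (4.94). At 24 h, Raptor-deficient replicate 3 was high for Tipin (8.46), wild-type replicate 3 was high for Rfc3 (8.14) and wild-type replicate 4 was low for Clspn (8.17). Wild-type samples were low for Tipin at 8 h (7.38, replicate 1) and in unstimulated cells (6.08, replicate 4), and for Orc1 in unstimulated cells (6.81, replicate 1).

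The 24 h response differed between genotypes, by limma's test of the difference itself, for 19 of the 21 genes given by sample. Most of the 21 were chosen for their genotype difference at 24 h or 8 h, so the count is a description. Of all genes, 8.01% were lower and 5.26% higher in this test. The Raptor-deficient minus wild-type differences were -3.56 for Clspn (adjusted p = 4.67e-15), -3.19 for Cdc6 (adjusted p = 3.35e-10), -2.29 for Mcm10, -2.13 for Pola1 and -2.03 for Chaf1b. They were -1.96 for Lig1, -1.92 for Fen1, -1.81 for Tipin, -1.71 for Rfc3, -1.48 for Dbf4 and -1.30 for Rpa2. They were -1.24 for Mcm5, -1.14 for Wdhd1, -1.08 for Mcm6, -0.92 for Rpa1 and -0.86 for Rpa3. The smallest were -0.77 for Gins4 (adjusted p = 0.0358), -0.73 for Pold2 (adjusted p = 0.0192) and -0.70 for Pold1 (adjusted p = 0.00617).

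The 8 h response differed for 4 genes, by -0.95 for Tipin (adjusted p = 0.000188), -0.72 for Mcm6 (adjusted p = 0.00856), -0.55 for Mcm2 (adjusted p = 0.0391) and 0.68 for Orc1 on its brighter probe set (adjusted p = 0.0165).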

How the results depend on the processing

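Averaging all probe sets of a gene turned Orc1 round, to -0.77 between genotypes at 24 h and to 0.51 from 0 h to 24 h in wild-type cells. Requiring a fold of at least 2 left 0 genes between genotypes at 8 h, 3, 16 and 20 genes for 8 h against 0 h, 24 h against 0 h and 24 h against 8 h in Raptor-deficient cells, 5 for 8 h against 0 h in wild type, 0 for the genotype difference of the 8 h response and 21 for that of the change from 8 h to 24 h. The 4 genes whose 8 h response differed became 2 (Mcm6 and Tipin) with only the groups compared, 8 with array weights, 9 without unstimulated Raptor-deficient replicates 2 and 3, and 3 to 9 on leaving out single samples. The 0 genes of the unstimulated comparison became 2 (Orc2 and Pcna) without those 2 replicates, and 0 to 1 on leaving out single samples.

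Over the 11 alternatives that keep the call rule, counts between genotypes were 13 to 19 at 8 h and 42 to 45 at 24 h, and leaving out single samples gave 9 to 17 and 42 to 44. The 9 came without wild-type 8 h replicate 2. Of 3670 values for single genes, 3585 kept direction and side of the threshold, 46 were no longer called, 37 became called and 2 reversed. Dbf4 in wild type at 24 h was not called with averaged probe sets (adjusted p = 0.852). At 8 h, Rpa3, Wdhd1, Fen1 and Gins4 became called without 1 of 3, 3, 1 and 1 samples. Where no reason is given, the cause was not tested.

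With the replicate block, counts were 0, 13 and 44 between genotypes at 0, 8 and 24 h, 16, 38 and 39 in Raptor-deficient cells (8 h and 24 h against 0 h, 24 h against 8 h), 22, 43 and 44 likewise in wild type, and 4, 43 and 36 for the genotype differences of those changes. It changed 1 of 105 single results, Dscc1 in Raptor-deficient cells at 24 h (adjusted p = 0.0429). Same-numbered samples correlated weakly (r -0.074 to 0.251, median 0.039, over 0.1 in 10 of 60 pairs), against a median of -0.013 and 6 of 180 pairs over 0.1 for different numbers. Between genotypes at the same time, same-numbered samples were all positively correlated. Their r was 0.03 to 0.12 unstimulated, 0.02 to 0.24 at 8 h and 0.06 to 0.25 at 24 h. Replicate 1 of both 24 h groups also shared the liver gene signal. Not every pair passed 0.1, and the main fit did not take numbers as pairs. That does not exclude pairing within a time. The block gave each replicate number the same effect at all times, so its counts cannot show whether such pairing matters. Whether the numbers mark a shared batch was not tested.

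The group means of Dscc1 and of resting Clspn lay under 5.51, the median of the gene table. No detection limit was available, and whether folds are understated at such intensities was not tested.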
